A study of Mus musculus with 8 samples.

Results

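Chemokines are small secreted proteins that guide cells, and 10 chemokine genes of the newborn mouse cortex were examined here: Ccl2, Ccl3, Ccl4, Ccl5, Ccl7, Ccl12, Cxcl10, Cxcl12, Cxcl14 and Cx3cl1. They were found as the non-control probes whose gene name in the array files is one of these symbols, which gave 12 of 55681 probes and 10 of 34741 named features, 19751 of which were bright enough to test. The samples were cortices of 8 male C57BL/6NCr mice, a wild-type inbred strain, taken at postnatal day 1.5 and each hybridised to 1 one-colour Agilent array. Control and ischemia each held 4 pups. The mothers of the ischemia pups had their uterine arteries clipped for 14 min under anesthesia at E16.5 (embryonic day), which deprives the whole fetus, not the brain alone. Whether the control mothers had an operation without clips, and which pups were litter mates, is not stated in the labels, so p-values measure the spread between the sampled pups. Tbr1 and Neurod6, genes of cortical projection neurons, were well above background on all 8 arrays.

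The comparison asks how chemokine transcripts stood some days after a brief fetal ischemia. Inflammatory chemokines of the CC class, such as Ccl2, Ccl3 and Ccl4, are made by microglia, the resident macrophages of the brain, and by other activated cells, and they attract leukocytes. Cxcl10 is induced by interferon and attracts T cells. The homeostatic chemokines act in development: Cxcl12, made by the meninges and by immature neurons, guides Cajal-Retzius cells and migrating interneurons through its receptors Cxcr4 and Ackr3, and Cx3cl1 is a membrane-bound chemokine of neurons that is read by microglia through Cx3cr1.

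Levels are given as the processed signal of the probe in percent of the 75th percentile of all non-control spots on the same array. A signal is called measured where the scanner software marked it as well above background. The 75th percentile lay between 305.6 and 393.3 signal units, and between 47.6% and 51.7% of spots per array were well above background. All 8 arrays had their place on 1 slide, the controls in row 1 and the ischemia arrays in row 2, so slide row and group cannot be told apart. To be tested, a gene needed a probe measured in this sense on 4 arrays or more. Of the 10 chemokine genes, Ccl3, Ccl4, Cxcl12, Cxcl14 and Cx3cl1 met this and the other 5 did not. With limma and Benjamini-Hochberg adjustment over all 19751 genes, 0 of these 5 tested chemokines passed the threshold of 0.05, where 0.00506% of all genes did. At an unadjusted limma p under 0.05, Ccl3 and Ccl4 were lower in ischemia, where 7.65% of all genes were and 3.25% were higher. Ccl4 entered the test through its control arrays alone, so this count is not read against that share.

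Ccl3 and Ccl4, the macrophage inflammatory proteins, gave the lowest values relative to control. Both encode attractants of macrophages and T cells, and Ccl3 binds the receptor Ccr1. The Ccl3 signal was 43.9%, 50.3%, 47.2% and 37.2% of the 75th percentile in control replicates 1 to 4. In ischemia replicates 1 to 4 it was 21.5%, 18.1%, 7.66% and 29.1%. All 4 ischemia arrays lay below all 4 controls, and the lowest of them, replicate 3, was not well above background. The unscaled processed signals were 153, 154, 151 and 146 in the controls against 77.0, 66.0, 29.0 and 114 in ischemia, so the groups were also apart before scaling. The group means were 44.6% ± 5.60 (SD, n = 4) in control and 19.1% ± 8.88 (SD, n = 4) in ischemia. The log2 difference of Ccl3 was -1.37 (SE 0.36, 95% interval -2.20 to -0.54, limma unadjusted p = 0.00490, adjusted p = 0.278), lower in 4 of 4 ischemia arrays. Permuting the group labels of the arrays exactly (two-sided) gave p = 0.0286, the smallest this design allows. Groups did not overlap in 6.55% of all genes tested, with ischemia lower in 4.28%. Without ischemia replicate 3 the log2 difference was -0.98 (limma adjusted p = 0.319).

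For Ccl4 the control signals were 10.02%, 10.9%, 12.9% and 11.8%, all well above background. The ischemia signals were 6.54%, 3.69%, 1.77% and 3.90%, and none of these 4 was well above background. As with Ccl3, ischemia replicate 3 held the lowest signal of the group. With the dim arrays set no lower than the lowest probe well above background on the same array, Ccl4 was 1.73-fold lower in ischemia. The measured means were 11.4% ± 1.20 in control and 3.98% ± 1.96 in ischemia (SD, n = 4). On ischemia replicate 1 that lowest probe stood at 5.73%, below Ccl4 at 6.54%. A signal not well above background can thus exceed it, and the fold is no strict bound. The fitted log2 difference of Ccl4 was -1.66 (limma adjusted p = 0.221). It is given as a description only, since Ccl4 was tested for its control signals alone and its ischemia signals were not well above background. With normexp background correction, whose offset of 50 shrinks dim probes, the differences were -0.79 for Ccl3 and -0.54 for Ccl4 (limma adjusted p = 0.174 for both). Omitting both ischemia replicates 1 and 4, the arrays with the most meningeal or choroid plexus transcripts, gave -1.91 and -2.15. That omission was chosen after seeing the data. Both arrays also held the highest ischemia signals of Ccl3 and of Ccl4, so a larger difference was bound to follow. Each of these genes was read by 1 spot per array. In whole cortex, fewer cells of a type and less RNA per cell cannot be told apart.

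**Figure D1:**
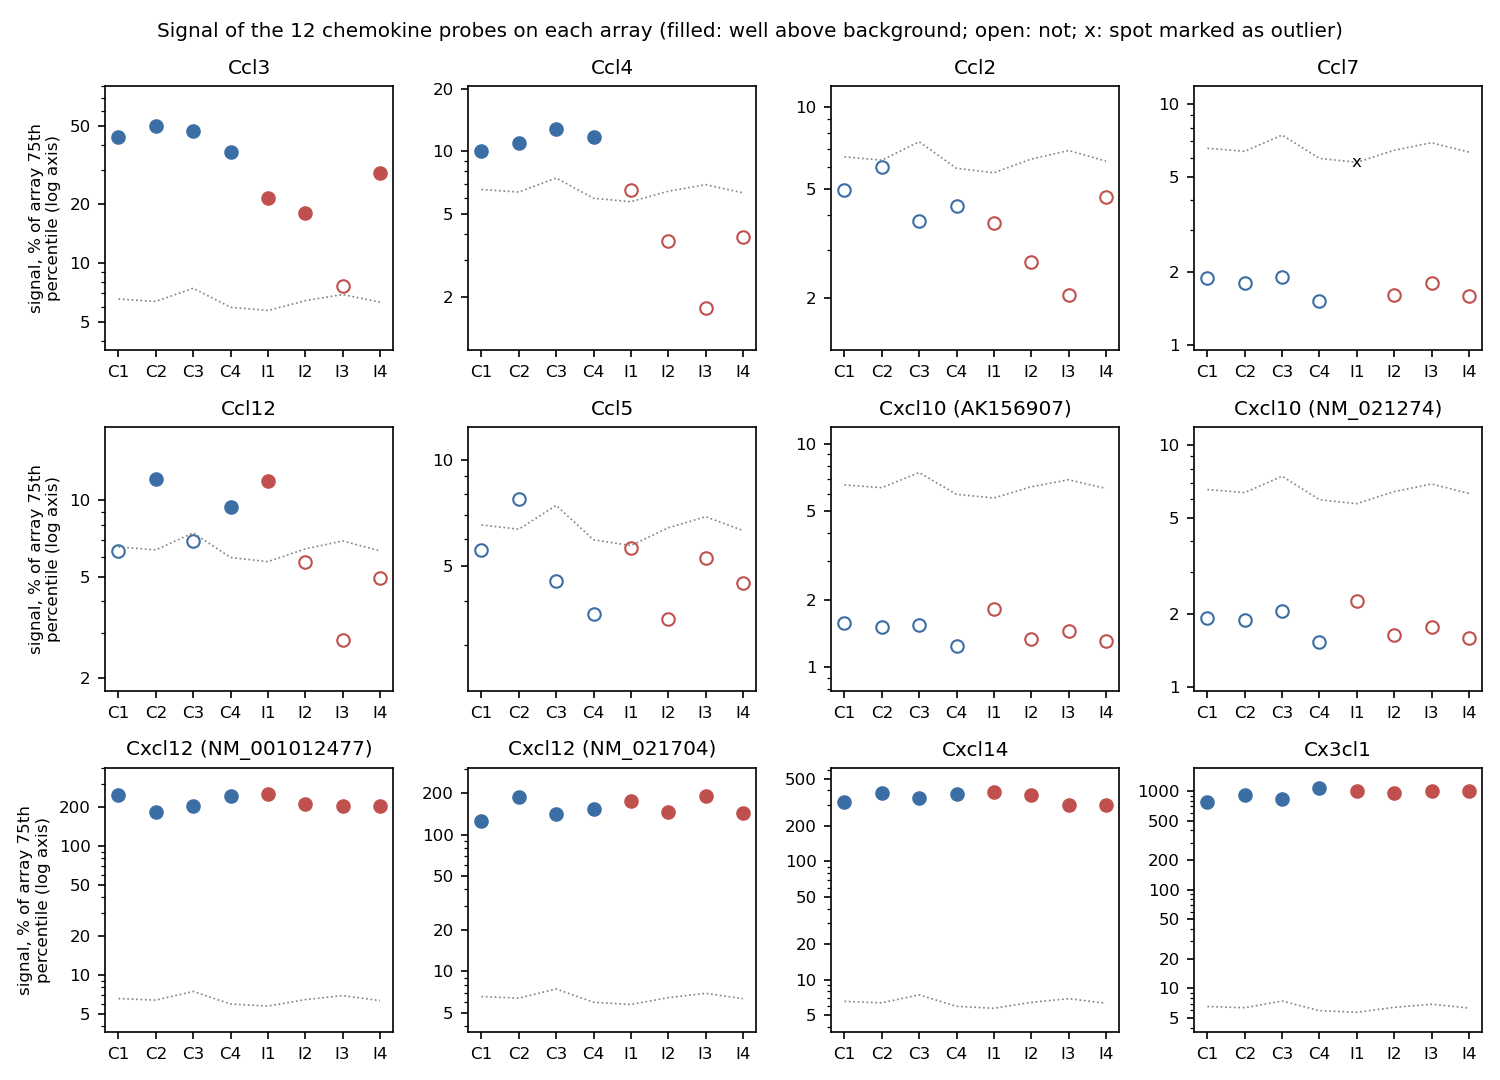
Signal of each of the 12 chemokine probes on control arrays C1 to C4 (blue) and ischemia arrays I1 to I4 (red), in percent of the array's 75th percentile on a log axis. Filled points are well above background, open points are not, x marks the Ccl7 spot set aside as an outlier (placed by the dotted line, not at its value), and the dotted line is the lowest signal of any probe well above background on that array. The groups do not overlap for Ccl3, and they overlap for Cxcl12, Cxcl14 and Cx3cl1. Ccl4 was tested through its control arrays alone and its ischemia signals were not well above background, so its points are a description only.

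The probes of Ccl3 and Ccl4 lie 16634 bases apart on chromosome 11 in mm9, the build of the array files (Ccl3 at 83461358 to 83461417 on the minus strand, Ccl4 at 83478052 to 83478111 on the plus strand). Whether they fall in an exon or a noncoding end was not analysed here. In the same cluster lie Ccl9 (83388223 to 83388282) and Ccl6 (83401997 to 83402056), chemokines of macrophages and microglia found in rodents. The Ccl9 signal was 34.1%, 49.8%, 41.6% and 35.0004% in control and 18.4%, 18.8%, 12.5% and 29.9% in ischemia. All ischemia arrays of Ccl9 lay below all controls, and replicate 3 was again the lowest. Ischemia lay below control without overlap in 4.28% of all genes. The log2 difference of Ccl9 was -1.07 (SE 0.25, limma unadjusted p = 0.00237, adjusted p = 0.243). Ccl6 stood at 24.2%, 35.5%, 33.9% and 39.2% in control and at 16.49%, 15.2%, 18.0% and 26.8% in ischemia, where replicate 4 lay above the lowest control. The difference of Ccl6 was -0.81 (SE 0.21, limma unadjusted p = 0.00399, adjusted p = 0.263). Both probes were well above background on all 8 arrays. With normexp they differed by -0.63 and -0.48.

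Counted over ligands, the listed chemokines and 30 further ligand genes together, 14 were bright enough to test. For Ccl1, also on chromosome 11, the difference was -0.20 (SE 0.26), and its probe was well above background on 3 control arrays and 1 ischemia array. The median over the 9 tested ligands outside the list was -0.05, against -0.02 over all genes. At an unadjusted limma p under 0.05, 2 were lower (Ccl6 and Ccl9) and 1 higher (Pf4), and 0 passed the adjusted threshold. Over all genes 7.65% were lower and 3.25% higher at that unadjusted p. Pf4, also called Cxcl4, is a product of platelets and of macrophages at the brain's borders. Its signal was 12.7% to 16.498% in the controls and 70.6%, 13.7%, 47.5% and 22.1% in ischemia replicates 1 to 4. Only replicate 2 stayed within the control range, and the log2 difference was 1.18 (SE 0.46, limma unadjusted p = 0.0323, adjusted p = 0.412). Without 1 array in turn it ranged from 0.80 to 1.58, with normexp it was 0.64, and omitting ischemia replicates 1 and 4 it was 0.86.

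**Figure D2:**
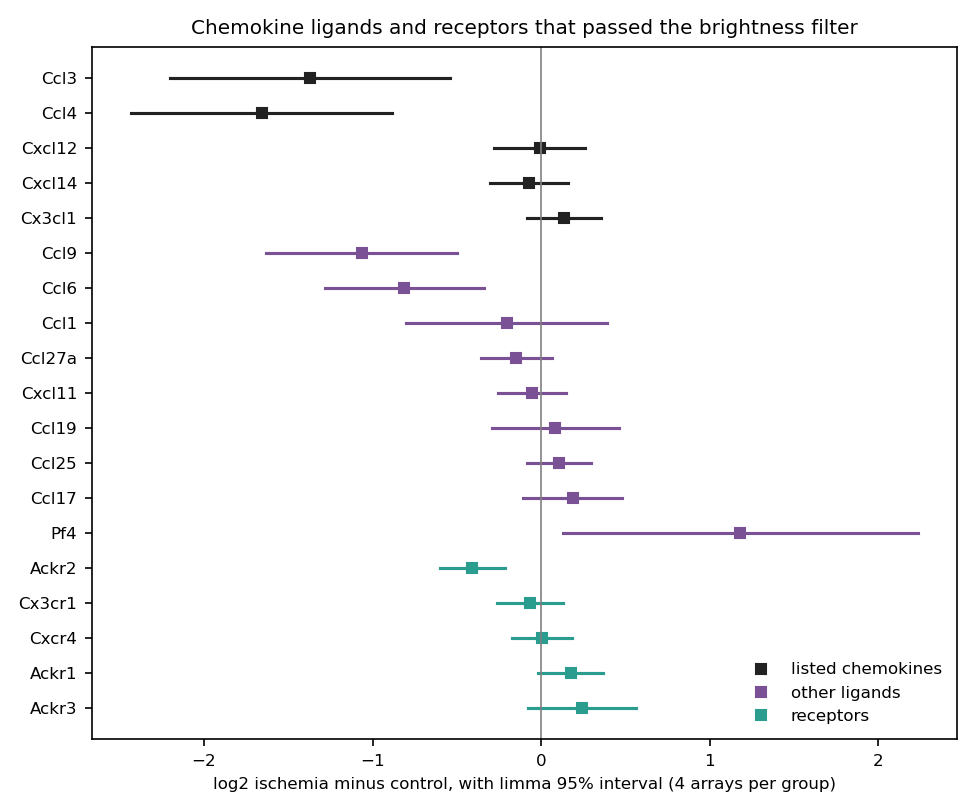
Log2 difference of ischemia minus control with its limma 95% interval for the 5 listed chemokines (black), 9 other ligands (purple) and 5 receptors (green) that passed the brightness filter, 4 arrays per group. The intervals of Ccl3, Ccl4, Ccl6, Ccl9 and Ackr2 lie below 0 and that of Pf4 above it, and 0 of the 19 genes passed the adjusted threshold. The ischemia signals of Ccl4 were not well above background, so its value describes the fit only.

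The other inflammatory chemokines were close to the detection limit in both groups, so no fold is given for them. Ccl2, the main attractant of monocytes through Ccr2, was printed as 10 spots on each array, which makes it the member with the most repeated reading. Of its 80 spots 8 carried an outlier mark, and of the 72 unmarked spots 0 were well above background. Of the 8 marked spots, which were left out, 4 were well above background, at 34.9 to 50.4 units. They lay on control replicates 1 and 2 and on ischemia replicate 2. The mean Ccl2 signal was 4.94%, 6.00%, 3.80% and 4.32% in control and 3.75%, 2.69%, 2.05% and 4.65% in ischemia, with overlapping groups. Ccl12, a mouse relative of Ccl2 that also binds Ccr2, was well above background on 2 control arrays and 1 ischemia array. Its signals were 6.31%, 12.1%, 6.91% and 9.42% in control and 11.9%, 5.73%, 2.83% and 4.93% in ischemia, so that the highest ischemia array lay beside the highest control. Ccl7, another ligand of Ccr2, had processed signals of 5.504 to 6.80 units on 7 arrays, none of them well above background. On ischemia replicate 1 its single spot read 269 units but was marked as an outlier, and the probe was therefore left out of the fit.

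Ccl5, which attracts T cells and macrophages, lay between 3.54% and 7.76% and was well above background on 0 of 8 arrays. Cxcl10 was read by 2 probes, both well above background on 0 of 8 arrays and between 1.25% and 2.26%. Neither transcript was therefore detectable in either group, which sets a bound on the signal but does not show absence. Of the 14 tested interferon response genes 12 were lower in ischemia, with a median difference of -0.11. Control replicate 2 stood apart on this list, with a mean log2 deviation of 0.30 from the control mean against -0.18 to -0.03 in the other controls and -0.46 to -0.04 in ischemia. Isg15, an interferon-induced modifier protein, read 118% there and 47.7% to 53.2% in the other controls. Of the 14 genes 1, Gbp3 at -0.62 (SE 0.17), had an unadjusted limma p under 0.05, and 0 passed the adjusted threshold.

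The homeostatic chemokines were measured on every array. Cx3cl1, also known as fractalkine, had signals of 783%, 915%, 836% and 1070.4% of the 75th percentile in control and 991%, 950%, 998% and 997% in ischemia. The controls spread over a wider range than the ischemia arrays, and control replicate 4 was the highest of all 8. The log2 difference was 0.14 (SE 0.10, 95% interval -0.08 to 0.36, limma adjusted p = 0.662). Adam10 and Adam17, the proteases that release Cx3cl1 from the membrane, differed by -0.08 (SE 0.07) and 0.06 (SE 0.28). Adam17 was well above background on 2 control and 3 ischemia arrays, and its sign turned with normexp (-0.045). The receptor gene Cx3cr1, a marker of microglia, differed by -0.07 (SE 0.09, 95% interval -0.26 to 0.13), and its second probe by 0.02.

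Cxcl12 was read by 2 probes for different transcripts. The probe matched to NM_001012477 and NM_013655 (chromosome 6, 117131227 to 117131286) gave 248%, 183%, 204% and 245% in control and 251%, 213%, 204% and 204% in ischemia. The groups overlapped throughout, with a log2 difference of -0.01 (SE 0.12, 95% interval -0.28 to 0.26, limma adjusted p = 0.985). The second probe, designed on NM_021704 (117125026 to 117125085), gave 127%, 189%, 142% and 155% in control and 177%, 146%, 192% and 143% in ischemia, a difference of 0.11 (SE 0.14). In the limma fit over all kept probes its adjusted p was 0.849. The probes ranked the arrays differently: control replicate 2 was the lowest array on the first and the second highest on the other. Cxcr4, the receptor through which Cxcl12 guides migrating cells, differed by 0.00 (SE 0.08, 95% interval -0.17 to 0.18). Ackr3, the receptor that removes Cxcl12 from the tissue, differed by 0.24 (SE 0.14, limma adjusted p = 0.577). Among markers of the cells that Cxcl12 guides, the median difference was -0.02 over 12 interneuron genes and -0.04 over 8 Cajal-Retzius genes. Neither list had a member at an unadjusted p under 0.05 with limma, and Reln and Trp73 differed by 0.16 (SE 0.16) and 0.15 (SE 0.19).

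Cxcl14, a chemokine of epithelia and of some interneurons, had signals of 321%, 378%, 346% and 372% in control and 386%, 365%, 301% and 303% in ischemia. Ischemia replicate 1 was the highest array, replicate 2 lay among the controls and replicates 3 and 4 lay below all of them. The difference was -0.07 (SE 0.10, 95% interval -0.31 to 0.16, limma adjusted p = 0.849). Over Cx3cl1, Cxcl12 and Cxcl14 the outermost interval bounds were -0.31 and 0.36 on the log2 scale, and missing the threshold does not show that the groups are equal.

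Few receptors of the inflammatory ligands were measurable. Of 23 listed receptor genes, 5 passed the brightness filter, and Ccr1, Ccr2 and Cxcr3 were well above background on 0 of 8 arrays. Among the 5, the median difference was 0.00 with 1 lower at an unadjusted p under 0.05 and 0 past the adjusted threshold. That gene was Ackr2, a scavenger receptor that removes inflammatory CC chemokines such as Ccl2, Ccl3 and Ccl4. Its signal was 63.7%, 68.5%, 67.6% and 69.8% in control and 46.8%, 50.8%, 47.2% and 59.2% in ischemia, with no overlap between the groups. Groups did not overlap, with ischemia lower, in 4.28% of all genes, and 7.65% were lower at an unadjusted limma p under 0.05. The log2 difference of Ackr2 was -0.41 (SE 0.08, limma unadjusted p = 0.00118, adjusted p = 0.228), lower in 4 of 4 ischemia arrays. Ackr1, which carries chemokines across the vessel wall, differed by 0.18 (SE 0.08, limma adjusted p = 0.498). Of 16 tested genes of chemokine signalling and processing, 8 were higher and 8 lower, with a median of 0.00 and 2 lower at an unadjusted p under 0.05. These were the gelatinase gene Mmp9 at -1.54 (SE 0.47), well above background on 4 control and 2 ischemia arrays, and Rgs10, a regulator of G protein signalling in microglia, at -0.23 (SE 0.10). With normexp Mmp9 differed by -0.51.

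Microglia genes as a list stood near the median of all genes. Of 18 listed genes 17 were tested, all but Ptprc, and 9 were higher and 8 lower with a median difference of 0.02. Their mean per array lay from -0.08 to 0.07 around the control mean in control and from -0.03 to 0.07 in ischemia. Csf1r differed by -0.03 (SE 0.07), Tmem119 by 0.14 (SE 0.08) and Aif1 by 0.24 (SE 0.11). Within the list, the complement genes C1qa, C1qb and C1qc differed by 0.42 (SE 0.10), 0.22 (SE 0.08) and 0.35 (SE 0.11). The purine receptor gene P2ry12 differed by -0.30 (SE 0.10). These 4 had unadjusted limma p-values between 0.00303 and 0.0210, and 0 of the 17 passed the adjusted threshold. The share at an unadjusted p under 0.05 was 10.9% over all genes in either direction.

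For other leukocytes fewer markers were measurable. Of 13 border macrophage and monocyte genes 4 were tested, while Cd163, Lyve1 and Ccr2 were well above background on 0 of 8 arrays. The myeloid gene Chil3 was measured on 4 ischemia arrays and 0 control arrays, so the filter itself set its direction. The other 3, Mrc1, Lyz1 and Lyz2, differed by 0.29 (SE 0.31), 0.42 (SE 0.20) and 0.27 (SE 0.21). Their mean per array overlapped between the groups, from -0.45 to 0.26 in control and from -0.03 to 0.78 in ischemia. Of 10 neutrophil genes 4 were tested, 3 were higher and 1 lower, with per-array means from -0.59 to 0.39 in control and from 0.00 to 1.53 in ischemia. The alarmin gene S100a8 stood at 8.10%, 13.3%, 10.5% and 4.99% in control and at 38.9%, 27.6%, 69.8% and 14.0% in ischemia (log2 difference 1.88, SE 0.49, limma adjusted p = 0.270), and was measured on 2 control and 4 ischemia arrays. Its partner S100a9 differed by 1.47 (SE 0.50), with overlapping groups. Elane, the neutrophil elastase gene, was measured on all 8 arrays and differed the other way, by -0.47 (SE 0.17, limma adjusted p = 0.386), and Camp by 0.31 (SE 0.39). Mpo, Ltf, Mmp8 and Ngp were well above background on 0 of 8 arrays. Of 11 lymphocyte genes 4 were tested, with a median of -0.16. The part of these cells in the chemokine values was not tested.

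**Figure D3:**
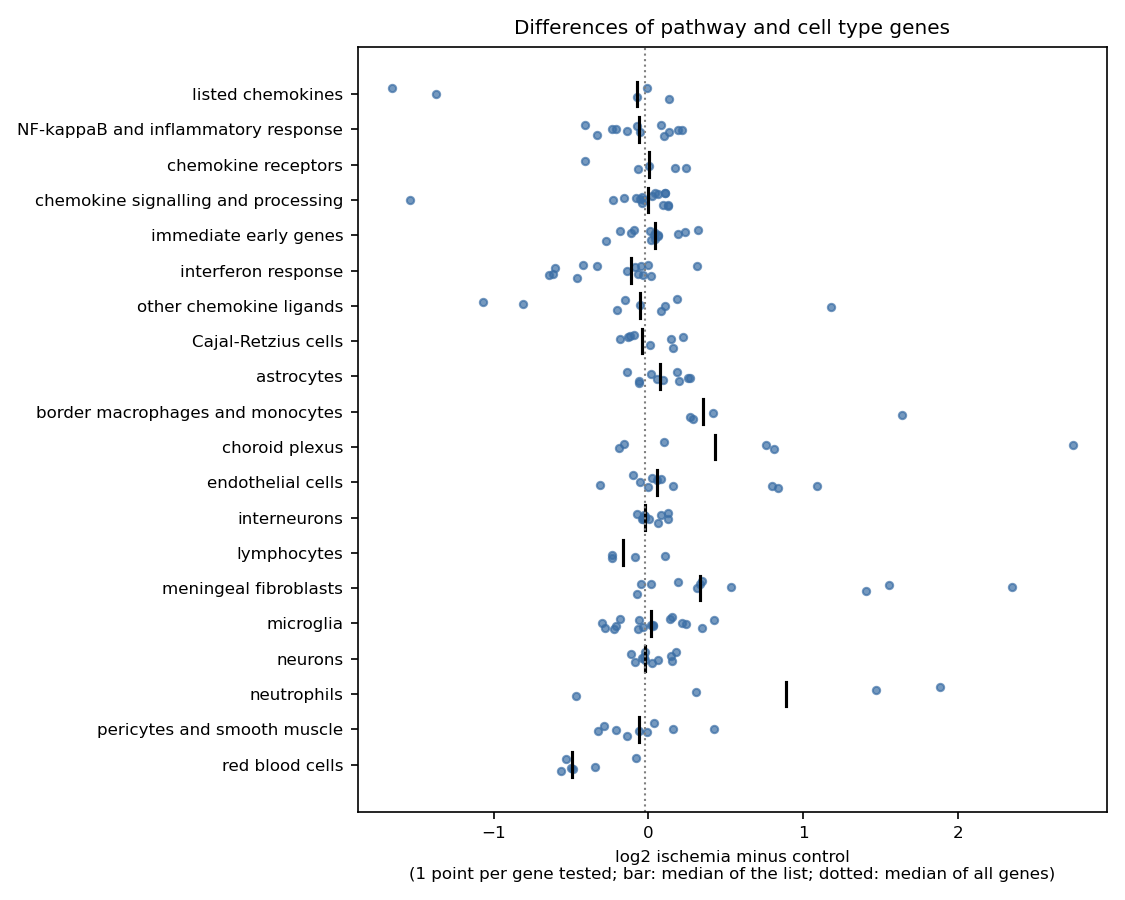
Log2 difference of ischemia minus control for each tested gene (1 point per gene) of the listed chemokines, 6 pathway lists and 13 cell type lists. Bars mark each list's median and the dotted line the median of all genes, -0.02. The microglia median lies at 0.02, while Ccl3 and Ccl4 are the 2 lowest points of the listed chemokines. Ccl4 was tested through its control arrays alone, so its point describes the fit only.

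The listed genes of inflammatory signalling, which hold inhibitors as well as inducers, gave mixed values where they were tested. Of 25 genes of the NF-kappaB and inflammatory response 12 were tested, 5 higher and 7 lower, with a median of -0.06. Tnf, Il1b and Il6, the cytokines that accompany Ccl3 and Ccl4 in activated microglia, were well above background on 0 of 8 arrays. Nfkbia, the inhibitor of NF-kappaB, stood at 666%, 678%, 629% and 654% in control and at 742%, 783%, 762% and 765% in ischemia, above all controls on 4 of 4 arrays (log2 difference 0.22, SE 0.05, limma adjusted p = 0.248). Groups did not overlap, with ischemia higher, in 2.27% of all genes. Csf1, a growth factor of microglia, differed by -0.33 (SE 0.10, limma adjusted p = 0.329). Immediate early genes, which react to handling and to activity within minutes, had a median of 0.04 over 14 tested genes, with 1 higher at an unadjusted p under 0.05 (Dusp1 at 0.24, SE 0.08) and 0 past the adjusted threshold.

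Markers of neighbouring tissues differed between arrays of the ischemia group. Choroid plexus genes were highest in replicate 4, with a mean log2 deviation of 3.09 from control, and meningeal fibroblast genes in replicate 1, with 1.49. Over the groups, the choroid plexus means ran from -0.03 to 0.06 in control and from -0.52 to 3.09 in ischemia, and the meningeal means from -0.27 to 0.22 and from -0.19 to 1.49. The meninges make Cxcl12 and hold the border macrophages that make Pf4, and Pf4 was highest in ischemia replicate 1. Next came ischemia replicate 3 for Pf4 but replicate 4 for the meningeal mean (0.71, against 0.51 in replicate 3). Both were lowest in ischemia replicate 2. Endothelial genes had a median of 0.06 over 11 tested genes, with per-array means from -0.03 to 0.03 in control and from 0.05 to 0.42 in ischemia. At an unadjusted limma p under 0.05, Ly6c1 (0.84, SE 0.19), Emcn (0.80, SE 0.27) and Slco1a4 (1.09, SE 0.21) were higher and Kdr (-0.31, SE 0.07) lower, and 0 passed the adjusted threshold. Slco1a4 was measured on 0 control arrays, and without it the means overlapped, from -0.03 to 0.02 and from -0.02 to 0.35. Median differences were -0.06 for pericytes and smooth muscle, 0.08 for astrocytes, -0.02 for neurons and -0.49 for red blood cells, where 6 of 6 tested genes were lower. The part of these tissues in the chemokine values was not tested.

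Promoter sequences from RefSeq (GRCm38.p6) were at hand for 6 of the 10 genes, Ccl3, Ccl12, Cxcl10, Cxcl12, Cxcl14 and Cx3cl1. The 250 bases before the annotated start of 3 of them are shown, 5′ to 3′ on the gene's own strand, since they stand for the 3 patterns above: Ccl3, lower in ischemia, Cxcl10, not detectable, and Cxcl12, measured on all arrays with overlapping groups. Capitals mark matches to 5 motifs searched on both strands: the NF-kappaB motif, the TATA box (TATAAA), AP-1 (TGANTCA), the interferon response element (GAAA, any 2 bases, GAAA) and the GC box (GGGCGG).
Ccl3: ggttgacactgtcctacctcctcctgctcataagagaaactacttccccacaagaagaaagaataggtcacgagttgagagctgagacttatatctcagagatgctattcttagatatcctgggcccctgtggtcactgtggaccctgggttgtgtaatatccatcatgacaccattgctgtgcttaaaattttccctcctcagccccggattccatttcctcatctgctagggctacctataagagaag
Cxcl10: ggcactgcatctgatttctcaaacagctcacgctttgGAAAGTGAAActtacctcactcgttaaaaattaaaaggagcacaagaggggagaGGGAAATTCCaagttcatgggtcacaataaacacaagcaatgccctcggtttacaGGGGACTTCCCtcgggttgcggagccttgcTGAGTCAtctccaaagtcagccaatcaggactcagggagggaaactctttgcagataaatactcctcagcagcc
Cxcl12: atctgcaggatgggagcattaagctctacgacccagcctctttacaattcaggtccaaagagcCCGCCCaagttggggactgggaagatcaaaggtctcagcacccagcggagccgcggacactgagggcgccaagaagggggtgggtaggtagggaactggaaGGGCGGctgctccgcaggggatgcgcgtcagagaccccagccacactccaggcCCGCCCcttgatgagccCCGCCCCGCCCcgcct
They were read from chromosome 11, 83649379 to 83649628 on the minus strand for Ccl3, chromosome 5, 92348890 to 92349139 on the minus strand for Cxcl10, and chromosome 6, 117168285 to 117168534 on the plus strand for Cxcl12. The Cxcl10 window held an interferon response element from -213 to -204, NF-kappaB matches from -159 to -150, from -104 to -95 and from -103 to -94, the last pair overlapping, and an AP-1 match from -74 to -68, counted from the start. The Cxcl12 window held 5 GC boxes, the last pair of which share 1 base, and 14 CpG dinucleotides, against 5 CpG for Cxcl10 and 2 for Ccl3 and a median of 6 over all 32851 promoters of this length. Cx3cl1 and Cxcl14 resembled Cxcl12 in their CpG count, with 14 and 16, and Ccl12 had 1. The Ccl3 window held 0 matches to the 5 motifs, which says only that these letters are not in it. Among all promoters 7.25% held the NF-kappaB motif, 2.98% the interferon response element, 6.75% the AP-1 motif, 12.4% the TATA box and 32.7% the GC box.

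**Figure D4:**
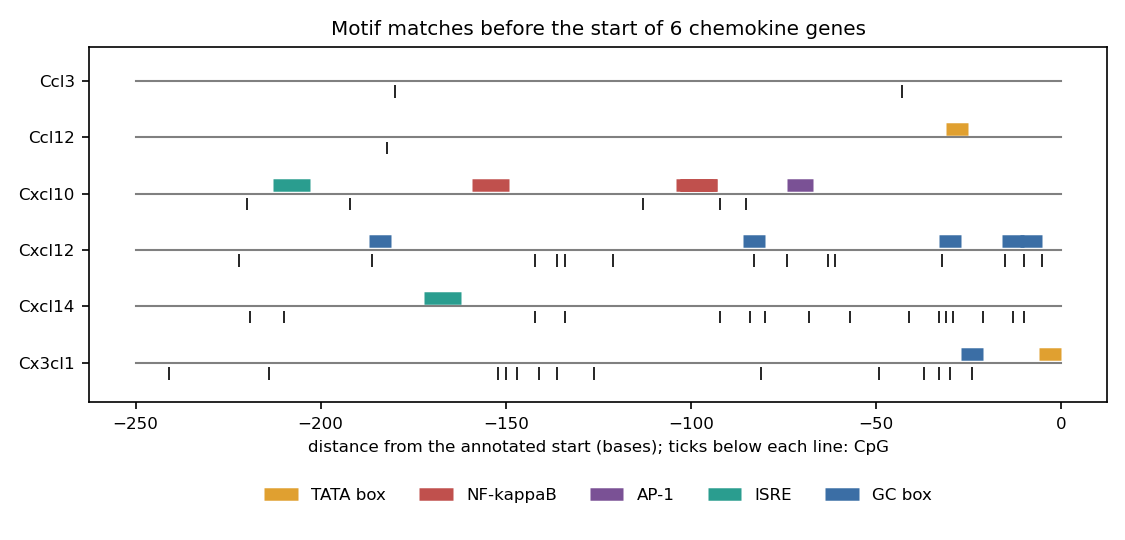
Positions of motif matches (coloured blocks above each line) and CpG dinucleotides (ticks below) in the 250 bases before the annotated start of 6 chemokine genes, with distance from the start in bases on the x axis. The windows of Cxcl12, Cxcl14 and Cx3cl1 hold 14 to 16 CpG, those of Ccl3, Ccl12 and Cxcl10 1 to 5.

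Across the processing choices run, Ccl3, Ccl6 and Ccl9 kept their direction. So did Ccl4, but it entered the test through its control arrays alone, so its direction is not read as support. Over 18 alternatives for Ccl3 and Ccl4 and 19 for Ccl6 and Ccl9, Ccl3 ranged from -1.91 to -0.79, Ccl4 from -2.15 to -0.54, Ccl6 from -0.99 to -0.48 and Ccl9 from -1.37 to -0.63, with lowest limma adjusted p-values of 0.174, 0.119, 0.167 and 0.132. The lowest values of Ccl3 and Ccl4 came from omitting both ischemia replicates 1 and 4. Under the requirement that a probe be well above background on all 8 arrays, Ccl3 and Ccl4 could not be tested.

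**Figure D5:**
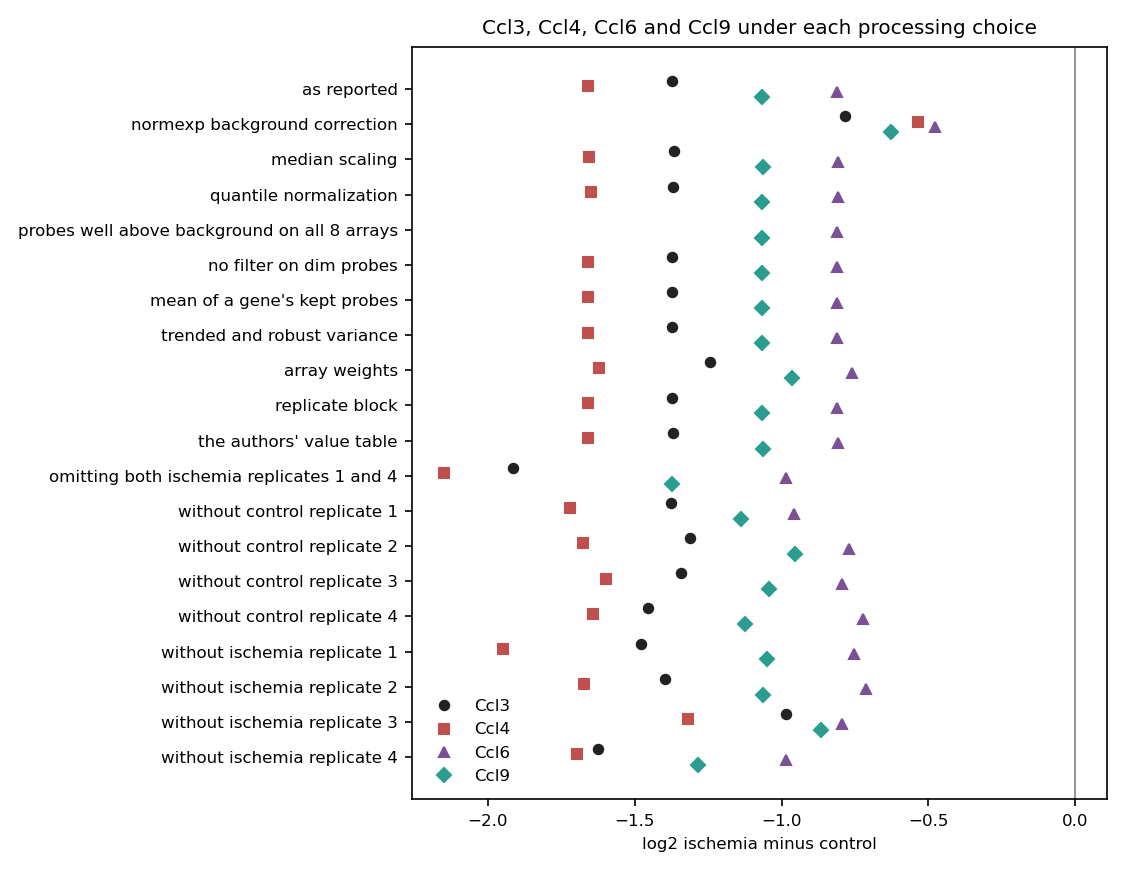
Log2 difference of ischemia minus control for Ccl3, Ccl4, Ccl6 and Ccl9 (x axis) under each processing choice (y axis), including each array left out in turn. All points lie below 0, and those nearest to 0 come from normexp background correction, from -0.79 to -0.48. Ccl4 was tested through its control arrays alone, so its points describe the fit only.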

How the data were processed

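The arrays were quantified in Agilent Feature Extraction 10.7.3.1, per the file headers. The intensities that the authors deposited are the processed signal, corrected for background by the software, and the mean and median local background signals. The deposited value table is a ratio, in which each array's processed signals were divided by a fixed number of unstated meaning (departure at most 0.362%). RNA input was 50 ng with Cy3 label, per the labels' protocols.

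Control spots and outlier spots were left out, which dropped 26 probes. Spots of a probe were averaged on the log2 scale after division by the 75th percentile of the array. Probes well above background on at least 4 arrays were kept (27131), and the brightest kept probe stood for a gene. Groups were compared with limma 3.58.1 (lmFit, eBayes) in R 4.3.3, tested on simulated data. The number of arrays limits the precision.

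The members and gene lists were chosen with earlier results of these data known. The text names the members, their receptors and proteases, list members with an unadjusted p under 0.05 (at most 4 per pathway list) and defining markers. Names were updated through RefSeq genes of GRCm38.p6, used for names only. Alternatives covered background correction, scaling, filter, probe rule, variance model, array weights, replicate block, the value table and arrays left out.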

Additional observations from a re-analysis of the deposited data

Results flagged for a closer look

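Within groups, 40 sets of 4 arrays were checked for 1 array lying apart, over the tested listed chemokines, other ligands and receptors. Such an array was found in 1 set, where chance gives about 1 in 20. In the ischemia group Cx3cl1 was lower in replicate 2 (950%) than in the other three (991% to 998%), with a ratio of gap to range of 0.855. A signal outside the comparisons was the Ccl7 spot of ischemia replicate 1, which read 269 units where the other 7 arrays read 5.504 to 6.80, and which the scanner software had marked as an outlier.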

How the results depend on the processing

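With limma, 0 of the listed chemokines passed in any alternative, and their median difference moved by less than the spread between arrays. The number of all genes that passed was 1 as reported, 2 with median scaling and 20 with a trended and robust variance. It was 0 with normexp, quantile normalization, probes well above background on all 8 arrays, no filter, the fit on single probes, the replicate block and, chosen after seeing the data, omitting both ischemia replicates 1 and 4. With 1 array left out it ranged from 0 to 1. Where it was 0, between 1619 and 2742 features had an unadjusted p under 0.05. Of 30 gene differences 27 kept their direction in every alternative. Cxcl12 turned to 0.049 with the mean of its probes and ranged from -0.094 to 0.053 with 1 array left out. Adam17 turned to -0.045 with normexp and ranged from -0.16 to 0.23, and Cxcr4 from -0.029 to 0.060. The cause was not tested. Chil3 passed with median scaling (1.64, limma adjusted p = 0.0250) and without ischemia replicate 4 (1.79, limma adjusted p = 0.0409). Chil3 entered the test through its ischemia arrays alone, so the filter set its direction and these passes are not read as support. The kept direction of Ccl4, tested through its control arrays alone, is not read as support either. Whether the replicate numbers pair the pups is not stated in the labels. Same-numbered arrays had correlations of deviations of 0.08, -0.06, 0.29 and 0.39. Arrays with different numbers were not compared, so these values do not decide it. With the replicate block Ccl3 had an adjusted p of 0.303 and Ccl4 one of 0.254. Signal over background limits Ccl4, Ccl12, Ccl2, Ccl5, Ccl7 and Cxcl10, each read near or below the lowest measured signal in at least 1 group. It also limits Ccl3 in ischemia replicate 3, where the signal of 7.66% was not well above background. The lowest measured signal on that array was 6.91%.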
